A study of Mus musculus with 10 samples.

Results

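The genes described here are the lysozyme genes Lyz1 and Lyz2 and the phagocyte NADPH oxidase genes Cybb, Cyba, Ncf1, Ncf4 and Rac2, 7 of the 19938 genes that had a probe set of their own. They were taken by name, each by the highest-mean probe set whose annotation gives that gene as the only symbol. Each of the 7 had 1 such probe set, and all 7 passed the filter on level, a mean log2 signal of at least 6.23. RNA came from mouse acute myeloid leukaemia cells driven by the MLL-AF9 fusion, all carrying a Cre-ER transgene whose Cre recombinase is switched on by 4-hydroxytamoxifen (4-OHT), and was measured on 10 arrays. The fl 4-OHT group held 3 arrays, from lines 10949, 10950 and 10986, which carry a conditional allele of the X-linked gene Zfx (Zfx fl/y) and were cultured for 72 h with 10 nM 4-OHT, the labels calling them Zfx cko. The fl vehicle group held 3 arrays of the same lines cultured with ethanol. The wt 4-OHT and wt vehicle groups held 2 arrays each, from lines 10977 and 10980 with the wild-type allele (wt/y), treated in the same 2 ways. Each line was an independent primary leukaemia taken from moribund mice, so genotype is compared between a few individual leukaemias, and c-Kit-positive cells were sorted after the culture.

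Lysozymes cut the peptidoglycan of bacterial cell walls. In the mouse, Lyz2 encodes the form made by macrophages and granulocytes, and its neighbour Lyz1 the form known from Paneth cells of the intestine. The phagocyte NADPH oxidase passes electrons from NADPH to oxygen and so makes superoxide for killing microbes. Cybb and Cyba encode the membrane flavocytochrome, Ncf1 and Ncf4 cytosolic subunits that join it on activation, and Rac2 a small GTPase that the active complex needs. Inherited loss of the flavocytochrome or of a cytosolic subunit causes chronic granulomatous disease.

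Upstream sequence is shown for Lyz2 and Cybb, the genes that moved most, and for Lyz1, since it resembles Lyz2. Each window runs from 250 bases before to 50 after the start given in the promoter table, on the minus strand of GRCm38.p6, from RefSeq, and is written 5′ to 3′. For Cybb that start lies inside the gene's RefSeq span and not at its outer end. Capitals mark AGGAA, searched on both strands (as TTCCT on the other), which holds GGAA, the core of sites bound by ETS factors such as PU.1. The windows are chr10:117282223-117282522 for Lyz2, chr10:117292819-117293118 for Lyz1 and chrX:9469275-9469574 for Cybb.
Lyz2: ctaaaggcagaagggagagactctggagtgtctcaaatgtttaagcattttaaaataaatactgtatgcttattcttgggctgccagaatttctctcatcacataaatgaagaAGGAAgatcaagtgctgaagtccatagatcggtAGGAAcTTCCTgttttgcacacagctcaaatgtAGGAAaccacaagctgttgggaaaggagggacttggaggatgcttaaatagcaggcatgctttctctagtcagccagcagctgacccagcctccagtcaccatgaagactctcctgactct
Lyz1: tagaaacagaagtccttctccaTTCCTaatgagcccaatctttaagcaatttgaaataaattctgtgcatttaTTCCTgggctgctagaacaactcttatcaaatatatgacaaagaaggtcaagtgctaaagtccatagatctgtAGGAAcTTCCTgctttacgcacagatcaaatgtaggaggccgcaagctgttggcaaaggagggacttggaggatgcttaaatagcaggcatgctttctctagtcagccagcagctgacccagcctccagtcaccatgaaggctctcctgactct
Cybb: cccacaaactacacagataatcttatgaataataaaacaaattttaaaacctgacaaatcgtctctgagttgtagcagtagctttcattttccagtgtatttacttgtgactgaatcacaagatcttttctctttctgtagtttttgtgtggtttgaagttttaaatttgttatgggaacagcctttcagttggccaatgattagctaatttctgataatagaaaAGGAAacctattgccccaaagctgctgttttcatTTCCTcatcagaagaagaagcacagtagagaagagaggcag
Lyz2 and Lyz1 matched at 201 of 300 positions set side by side without gaps (67%), and the longest shared run, 86 bases, spanned the start site. AGGAA occurred 4 times in the Lyz2 window, 4 times in the Lyz1 window and 2 times in the Cybb window. It occurred 0 times in those of Ncf1 and Cyba, and 66.7% of the 32851 promoter windows in the table hold it. The shorter core GGAA, on either strand, does occur in the Ncf1 and Cyba windows. The table holds no window for Ncf4 or Rac2. TGTGGT, a RUNX-type motif searched on both strands, occurred once each in the Lyz2 and Cybb windows and in 16.8% of all windows. CCAAT, on either strand, occurred once each in the Lyz1 and Cybb windows and in 37.4% of all windows. The C/EBP-type motif TTNNGNAA, on either strand, occurred once each in the Lyz2 and Lyz1 windows and in 40.7% of all windows. These are matches of letters and no measure of binding.

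The vehicle array of line 10986 stood apart, at 49.4 on the first principal component against -20.4 to 23.0 for the other arrays, so results are also given without that line. Median signals were 144.7 to 158.2 on the 10 arrays. The Zfx probe set did not fall with 4-OHT in the fl lines (10.07, 9.98 and 10.02 on the fl 4-OHT arrays, against 10.09, 9.63 and 9.24 on the fl vehicle arrays). No source used here gives the position of its probes relative to the deleted part, so it checks neither deletion nor labels. Kit was above the filter on all 10 arrays, from 8.35 to 9.94, as were the means of the other 6 progenitor genes listed (Hoxa9, Meis1, Cd34, Flt3, Ptprc and Mpo).

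In the fl lines, 4-OHT went with higher Lyz2 and Cybb and with little movement or slightly lower levels of the rest of the oxidase. The mean log2 change was 2.08 for Lyz2 (4.22-fold) and 1.32 for Cybb (2.49-fold), against -0.35 to 0.34 for the other 5 genes. None of the 7 passed limma's test over all genes (adjusted p 0.111 for Lyz2 and 0.13 for Cybb), where 24 of 15662 genes passed (0.153%). That count was 440 without line 10986. It was 0 without line 10949, without line 10950, or with the fl arrays alone. The fl calls named below for other genes were thus lost in each fit with a count of 0, and they depend on the SE shared with the wt lines. Line 10986 changed in the same direction as the other fl lines for each of these genes. Its changes were 2.75 for Mmp8, 1.72 for Ctss, 1.55 for Vcan, 0.93 for Irf8 and -0.81 for Cebpd. Leaving out a wt line cannot move the fl change of Lyz2, since that change is fitted from the fl lines alone. With the fl arrays alone it was 2.08 (SE 0.35, limma adjusted p = 0.216). At an unadjusted p under 0.05, Lyz2 and Cybb were higher (2 of 7, against 6.68% of all genes) and Ncf4 lower (1 of 7, against 5.65%), or 3 of 7 in either direction, against 12.3%. The median change of the 7 was -0.03, near the median of 0.00 over all genes. In bulk RNA, a different share of cells of a type cannot be told apart from a different amount of RNA per cell.

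**Figure D1:**
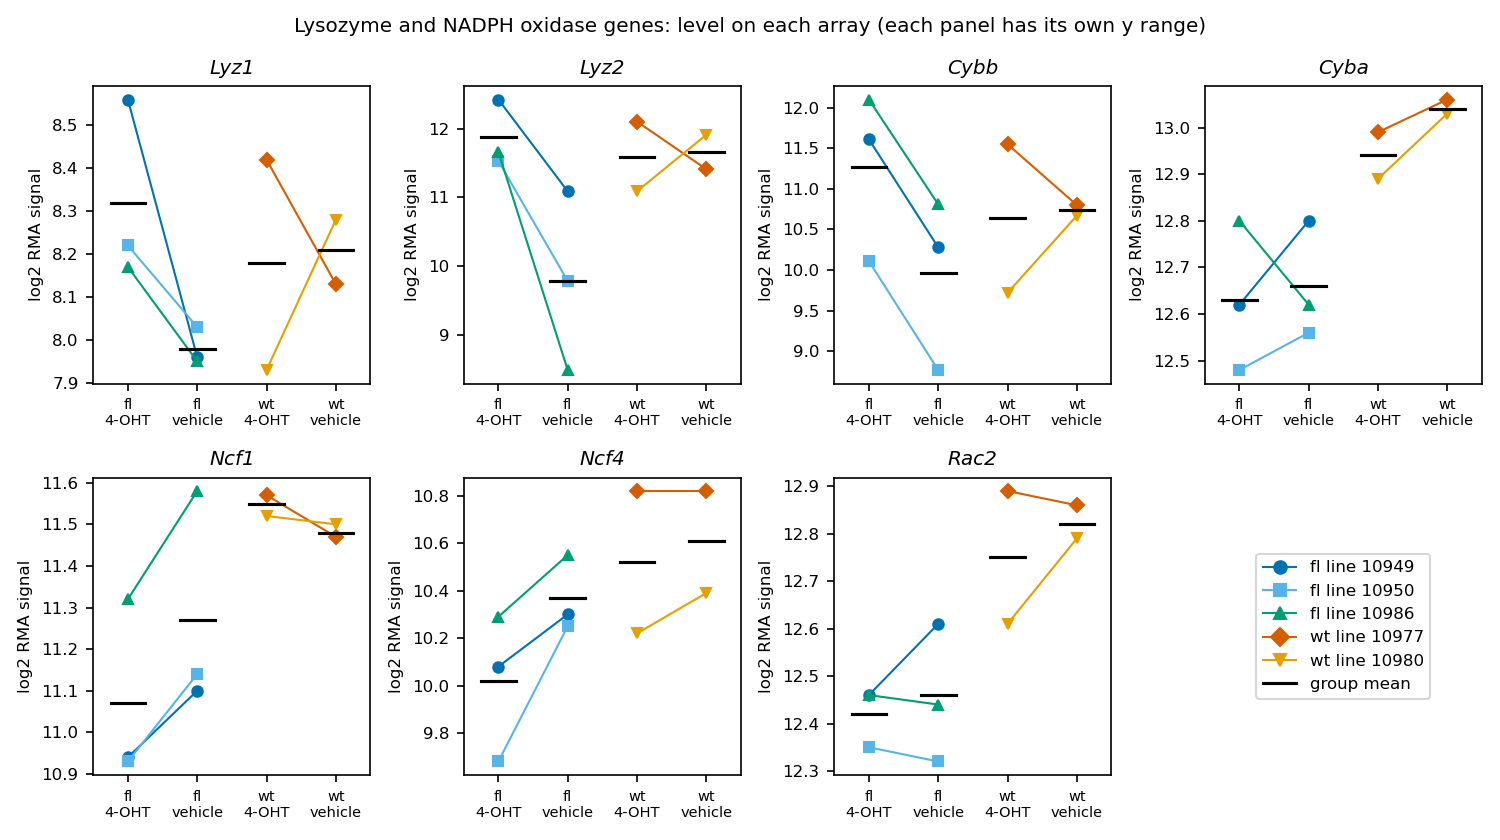
Log2 RMA signal of each gene (y axis, a range of its own in each panel) on the 10 arrays, by group (x axis), with lines joining the 2 arrays of a leukaemia line and black bars for group means. Lyz2 is at 11.53 or more on each fl 4-OHT array and at 11.09 or less on each fl vehicle array, while Cyba and Rac2 lie lower in fl lines than in wt lines under either treatment.

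Lyz2 had log2 levels of 12.42, 11.53 and 11.66 in lines 10949, 10950 and 10986 with 4-OHT, against 11.09, 9.79 and 8.50 with vehicle. All 3 fl 4-OHT arrays were above all 3 fl vehicle arrays. On the linear scale the signals were 5479, 2958 and 3231 with 4-OHT, against 2173, 887 and 362 with vehicle. The change was 1.33, 1.74 and 3.16 by line (mean 2.08, SE 0.39, 95% interval 1.13 to 3.02, n = 3 line pairs). The largest change belonged to line 10986, whose vehicle array stood apart and had the lowest Lyz2 level of the 10. Without that line the change was 1.54 (SE 0.29) and passed (limma adjusted p = 0.0386), in a fit that called 440 genes. When that vehicle array alone was dropped and the arrays were taken as independent, it was 1.43 (adjusted p = 0.325).

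The wt lines moved apart in Lyz2. With 4-OHT the levels were 12.10 in line 10977 and 11.09 in line 10980, against 11.41 and 11.91 with vehicle. The change was thus 0.69 in the first and -0.82 in the second, with a mean of -0.06 (SE 0.48, 95% interval -1.22 to 1.09, n = 2 line pairs, limma adjusted p = 1). Both lines' changes lay below the 1.33 to 3.16 of the fl lines. The difference of the 4-OHT change between fl and wt lines was 2.14 (SE 0.62, 95% interval 0.65 to 3.63, adjusted p = 0.726). No gene passed that test by limma (0%). At an unadjusted p under 0.05, Lyz2 and Cybb (2 of 7) were higher, against 3.05% of all genes higher and 912 genes (5.82%) in either direction.

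Lyz1, a close copy of Lyz2, had a smaller change. Its levels were 8.56, 8.22 and 8.17 in lines 10949, 10950 and 10986 with 4-OHT, against 7.96, 8.03 and 7.95 with vehicle, again with no overlap. The change was 0.34 (SE 0.15, 95% interval -0.03 to 0.70, adjusted p = 0.451) in the fl lines. The wt levels were 8.42 and 7.93 with 4-OHT, against 8.13 and 8.28 with vehicle, a mean change of -0.03 (SE 0.19). In each of the 5 lines Lyz1 went the same way as Lyz2, and how much of its signal comes from Lyz2 was not tested. Among all genes, 4.55% had each fl 4-OHT array above each fl vehicle array, and of the 7 these were Lyz1 and Lyz2.

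Cybb, the catalytic flavocytochrome subunit, had levels of 11.61, 10.11 and 12.10 in lines 10949, 10950 and 10986 with 4-OHT, against 10.28, 8.77 and 10.81 with vehicle. The groups overlapped, because line 10950 was low and line 10986 high under both treatments. Within lines, though, the change was nearly the same, 1.33, 1.33 and 1.29, with an SD of 0.02 over the 3 lines. The fitted change was 1.32 (SE 0.28, 95% interval 0.64 to 1.99, n = 3 line pairs, limma adjusted p = 0.13).

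The SE of Cybb is shared over both genotypes, and the wt lines differed. Cybb had levels of 11.55 in line 10977 and 9.72 in line 10980 with 4-OHT, against 10.80 and 10.67 with vehicle, so the changes were 0.75 and -0.95 (mean -0.10, SE 0.35, adjusted p = 1). With the fl arrays alone the SE of the fl change was 0.11 and the adjusted p 0.0759. Without line 10986 the change was 1.33 (adjusted p = 0.0701). The fl minus wt difference of the change was 1.42 (SE 0.45, 95% interval 0.35 to 2.49, adjusted p = 0.739). Lyz2 and Cybb were among the 16 genes (0.102% of all) whose log2 change was 1 or more in each fl line, a bound chosen after their values were seen.

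**Figure D2:**
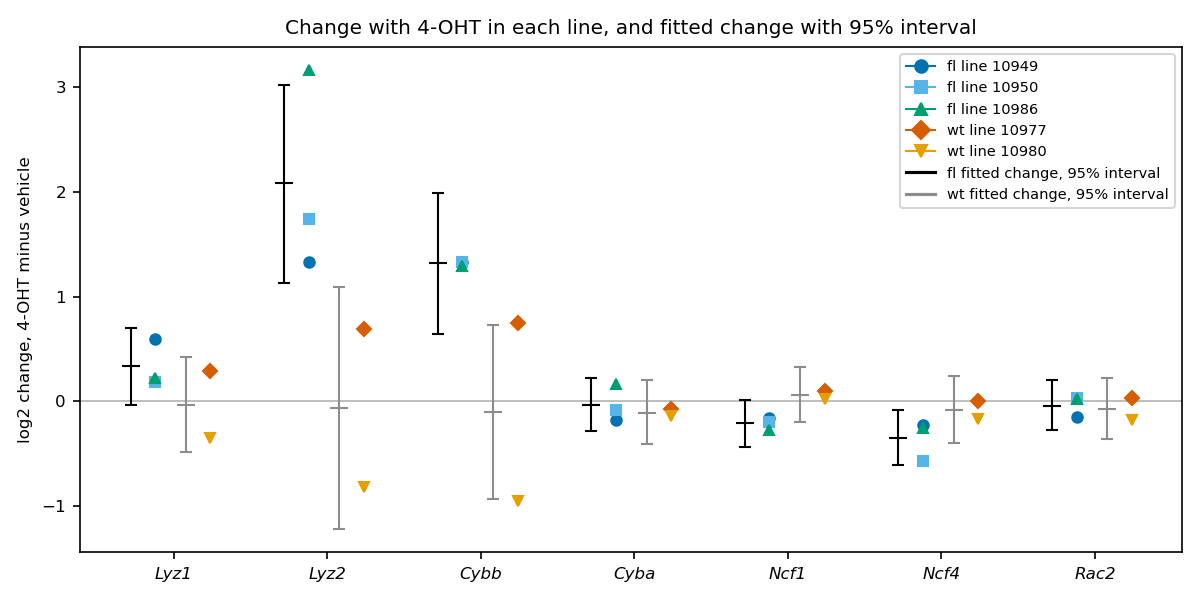
Log2 change with 4-OHT (y axis) of each gene (x axis) in each line (coloured points), beside the fitted change with its 95% interval for the fl lines (black) and the wt lines (grey). The 3 fl changes of Cybb lie between 1.29 and 1.33, those of Lyz2 spread over 1.33 to 3.16, and both genes have 1 wt line above 0 and 1 below.

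Cyba, the small flavocytochrome subunit that pairs with and stabilises the Cybb product, did not move with Cybb. Its levels were 12.62, 12.48 and 12.80 in lines 10949, 10950 and 10986 with 4-OHT, against 12.80, 12.56 and 12.62 with vehicle. The groups overlapped and the lines went different ways. The change was -0.03 (SE 0.11, adjusted p = 0.992), and its 95% interval of -0.28 to 0.22 leaves out a change of the size seen for Cybb. The wt change was -0.11 (SE 0.13, 95% interval -0.41 to 0.20, adjusted p = 1).

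The cytosolic subunit genes were lower with 4-OHT in each fl line, by small amounts that did not pass. Ncf1, the organiser subunit that is phosphorylated on activation, had 10.94, 10.93 and 11.32 in lines 10949, 10950 and 10986 with 4-OHT, against 11.10, 11.14 and 11.58 with vehicle. The group ranges overlapped through line 10986, and the change was -0.21 (SE 0.09, 95% interval -0.43 to 0.01, adjusted p = 0.424). In the wt lines Ncf1 had 11.57 and 11.52 with 4-OHT, against 11.47 and 11.50 with vehicle, a change of 0.06 (SE 0.11, adjusted p = 1). Ncf1 alone of the 7 was lower in all 3 fl lines and higher in both wt lines, a pattern of 3.49% of all genes.

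Ncf4, a regulatory subunit that binds a phagosome lipid, had 10.08, 9.68 and 10.29 with 4-OHT in the same order, against 10.30, 10.25 and 10.55 with vehicle. The groups overlapped by a small margin, and the change of -0.35 (SE 0.11, 95% interval -0.61 to -0.08) did not pass over all genes (adjusted p = 0.268). Without line 10986 it was -0.39 (adjusted p = 0.12). Line 10950 had the largest decrease, a change of -0.57, against -0.22 and -0.25 in the other fl lines. In the wt lines the levels were 10.82 and 10.22 with 4-OHT, against 10.82 and 10.39 with vehicle, a change of -0.08 (SE 0.14, adjusted p = 1).

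Rac2, the haematopoietic Rac GTPase, stayed within a narrow range. It had 12.46, 12.35 and 12.46 in lines 10949, 10950 and 10986 with 4-OHT, against 12.61, 12.32 and 12.44 with vehicle, a change of -0.04 (SE 0.10, 95% interval -0.27 to 0.20, adjusted p = 0.98). Wt lines had 12.89 and 12.61 with 4-OHT, against 12.86 and 12.79 with vehicle, a change of -0.07 (SE 0.12, adjusted p = 1). Of the 7 genes, 3 (Lyz1, Lyz2 and Cybb) were higher in all 3 fl lines, as were 14.6% of all genes, and 2 (Ncf1 and Ncf4) were lower in all 3, as were 14.5%.

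In the wt lines no gene passed by limma (0%), and 23 of 15662 (0.147%) and 0 of the 7 stood at an unadjusted p under 0.05. Lyz1, Lyz2, Cybb, Ncf4 and Rac2, 5 of the 7, were higher with 4-OHT in line 10977 and lower in line 10980, a pattern of 26.5% of all genes. For Ncf4 and Rac2 the change in line 10977 was at most 0.03. Cyba was lower in both wt lines, as were 24.5% of all genes, and Ncf1 was higher in both, as were 24.3%.

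The fl lines were also set against the wt lines, which asks how the floxed and wild-type leukaemias differ with and without Cre activation. These comparisons use the same arrays as those above, and genotype cannot be told apart from the individual leukaemia. None of the 7 passed in either by limma, where 101 of 15662 genes (0.645%) passed under 4-OHT and 3 (0.0192%) under vehicle. Without line 10980 these counts were 0 and 0. At an unadjusted p under 0.05, Cyba, Ncf1, Ncf4 and Rac2 were lower in fl lines under 4-OHT (4 of 7, against 6.97% of all genes lower) and Lyz2, Cyba and Rac2 under vehicle (3 of 7, against 6.12%). The median difference of the 7 was -0.31 under 4-OHT and -0.36 under vehicle, against 0.02 and 0.03 over all genes.

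For Cyba and Rac2 the fl lines lay below the wt lines under either treatment. Cyba averaged 12.63 ± 0.16 on fl 4-OHT arrays and 12.94 ± 0.07 on wt 4-OHT arrays (SD, n = 3 and 2), a difference of -0.31 (SE 0.12, 95% interval -0.58 to -0.04, adjusted p = 0.372). It averaged 12.66 ± 0.13 on fl vehicle arrays and 13.04 ± 0.02 on wt vehicle arrays, a difference of -0.38 (SE 0.12, 95% interval -0.65 to -0.11, adjusted p = 0.419). Each fl array was below each wt array of the same treatment.

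Rac2 averaged 12.42 ± 0.07 on fl 4-OHT arrays and 12.75 ± 0.19 on wt 4-OHT arrays, a difference of -0.32 (SE 0.12, 95% interval -0.59 to -0.06, adjusted p = 0.331). Under vehicle it averaged 12.46 ± 0.15 in fl lines and 12.82 ± 0.05 in wt lines, a difference of -0.36 (SE 0.12, 95% interval -0.63 to -0.09, adjusted p = 0.434), again without overlap. Cyba and Rac2 were the 2 of 7 with fl below wt without overlap under both treatments, as were 5.27% of all genes. Their profiles over the 10 arrays, each centred on its mean, differed by a root mean square of 0.07. That was the smallest value among the 21 pairs of the 7 genes, which ran up to 1.20 for Lyz2 and Ncf1. The measure is not scaled to a gene's own spread, which was 0.20 for Rac2 and 1.11 for Lyz2. Outside the 7, Galm also differed from Rac2 by 0.07.

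For the cytosolic subunit genes the fl minus wt difference was larger in size under 4-OHT than under vehicle. Ncf1 averaged 11.07 ± 0.22 on fl 4-OHT arrays and 11.55 ± 0.03 on wt 4-OHT arrays, a difference of -0.48 (SE 0.16, 95% interval -0.85 to -0.12, adjusted p = 0.274) without overlap. Under vehicle the difference was -0.21 (SE 0.16, adjusted p = 0.556) and the groups overlapped. Ncf4 differed by -0.50 (SE 0.22, adjusted p = 0.457) under 4-OHT and by -0.24 (SE 0.22, adjusted p = 0.595) under vehicle, with overlap in both. The change in these differences equals the fl minus wt difference of the 4-OHT change, which was -0.27 for both genes (SE 0.14 for Ncf1 and 0.17 for Ncf4) and did not pass (adjusted p = 0.889 and 0.908).

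**Figure D3:**
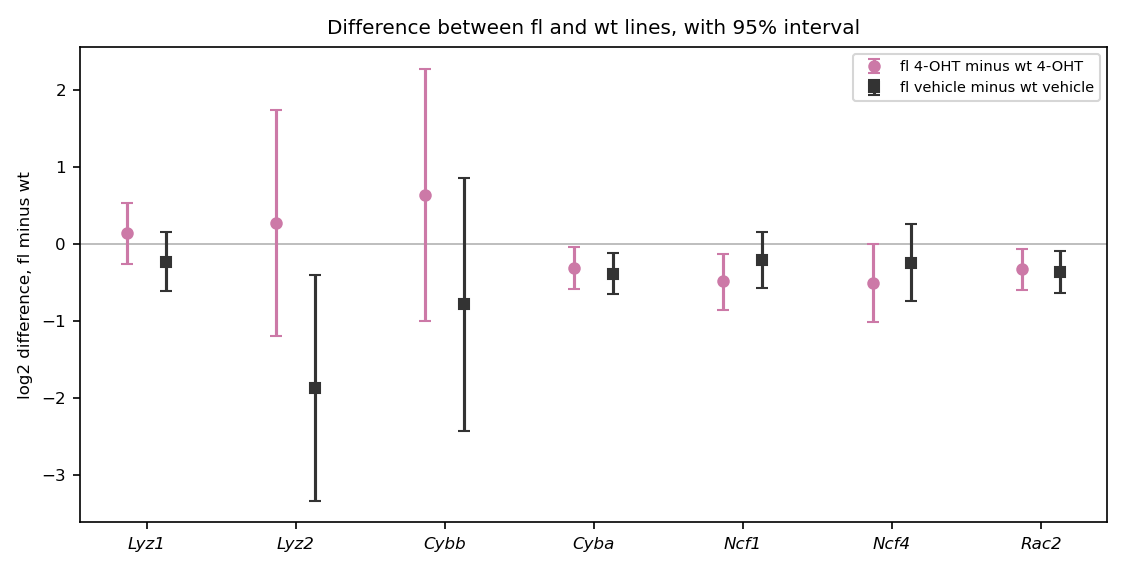
Log2 difference of fl minus wt lines (y axis) for each gene (x axis) under 4-OHT (circles) and under vehicle (squares), with 95% intervals. The intervals of Cyba and Rac2 lie below 0 under either treatment, while that of Lyz2 lies below 0 under vehicle and spans 0 under 4-OHT.

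Without 4-OHT, Lyz2 was at a lower mean level in the fl lines than in the wt lines, by a difference that did not pass. It averaged 9.79 ± 1.29 on fl vehicle arrays and 11.66 ± 0.35 on wt vehicle arrays, a difference of -1.86 (SE 0.64, 95% interval -3.33 to -0.40, adjusted p = 0.464), and the groups did not overlap. On 4-OHT arrays it averaged 11.87 ± 0.48 in fl lines and 11.59 ± 0.71 in wt lines, a difference of 0.28 (SE 0.64, 95% interval -1.19 to 1.74, adjusted p = 0.986) with overlap. Lyz2 with 4-OHT in the fl lines thus overlapped the wt lines, and the 2 lowest of the 10 levels were those of lines 10950 and 10986 with vehicle. Without line 10986 the vehicle difference was -1.22 (adjusted p = 0.911). Each fl array was below each wt array for Lyz1, Lyz2, Cyba and Rac2 under vehicle (4 of 7, against 12.1% of all genes) and for Cyba, Ncf1 and Rac2 under 4-OHT (3 of 7, against 14.2%).

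Cybb varied widely between the fl leukaemias under either treatment, and between the wt leukaemias under 4-OHT but not under vehicle. It averaged 11.27 ± 1.04 on fl 4-OHT arrays and 10.64 ± 1.29 on wt 4-OHT arrays, and 9.96 ± 1.06 on fl vehicle arrays and 10.74 ± 0.09 on wt vehicle arrays. The fl minus wt differences were 0.64 (SE 0.72, limma adjusted p = 0.946) and -0.78 (SE 0.72, adjusted p = 0.596). Each was smaller in size than the SD of the fl arrays under the same treatment. Without line 10986 the differences were 0.22 and -1.21. Lyz1 differed by 0.14 (SE 0.17) under 4-OHT and by -0.23 (SE 0.17) under vehicle.

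Ordered from high to low, the group means ran fl 4-OHT, wt vehicle, wt 4-OHT and fl vehicle for Lyz1, Lyz2 and Cybb. The 3 highest means differed by less than the SD of the fl 4-OHT arrays for each of these genes. For Cyba, Ncf4 and Rac2 the order was wt vehicle, wt 4-OHT, fl vehicle and fl 4-OHT. Ncf1 had the same order with the wt groups exchanged.

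Other genes of the oxidase and of the lysozyme family, listed by name, gave no call in any comparison. Of 11 other oxidase subunit and maturation genes with a probe set of their own, 7 were tested, with Cybc1, a chaperone of the flavocytochrome, at 0.16 (SE 0.14) and Rac1 at 0.06 (SE 0.10) in the fl lines. Nox1, Nox3, Nox4 and Duox1 were below the level filter. Of 18 genes of oxidase activation, 16 were tested, with a median of 0.15. Of these, 5 were higher and 2 lower in all 3 fl lines, against 14.6% and 14.5% of all genes. The phospholipase gene Pla2g4a stood at 0.52 (SE 0.28, adjusted p = 0.533) and Hvcn1, the proton channel that balances the oxidase's charge, at 0.48 (SE 0.20, adjusted p = 0.391), each largest in line 10986 (1.49 and 0.98). Of 8 further lysozyme family genes, 3 were tested, with Lyg2 at -0.09 (SE 0.13) and Spaca3 at -0.03 (SE 0.14).

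Genes that handle hydrogen peroxide, which forms from superoxide, gave no call in any comparison either. Of 16, 13 were tested and the median change in the fl lines was 0.10. Among the 13, 6 were higher and 2 lower in all 3 fl lines, against 14.6% and 14.5% of all genes. The peroxiredoxin genes went different ways, with Prdx4 at 0.78 (SE 0.26, adjusted p = 0.295) and Prdx2 at -0.75 (SE 0.14, adjusted p = 0.11). Prdx2 was lower in each fl line (-1.06, -0.83 and -0.37) and moved by at most 0.01 in the wt lines.

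Transcription factor genes of the myeloid lineage, all 17 tested, were the list with calls in more than 1 comparison. In the fl lines Irf8, which directs progenitors toward monocytes and dendritic cells, rose by 0.93 (SE 0.10, limma adjusted p = 0.0373) and Cebpd, a C/EBP factor, fell by 0.80 on the log2 scale (SE 0.09, adjusted p = 0.047). The list's median was -0.23, and 10 of the 17 were lower in all 3 fl lines, against 14.5% of all genes. Under 4-OHT, Irf8 was higher in fl than in wt lines by 1.56 (SE 0.26, adjusted p = 0.0436). Cebpd (-0.70, adjusted p = 0.037), Cebpe, a factor of granulocyte maturation (-0.81, adjusted p = 0.0218), and Gfi1, a repressor needed for granulocytes (-0.95, adjusted p = 0.0436), were lower. Under vehicle the fl minus wt difference was already 0.70 for Irf8, -0.40 for Cebpe and -0.41 for Gfi1, and 0.01 for Cebpd. None of these passed (limma adjusted p 0.356 to 0.977). Nor did the fl minus wt difference of the 4-OHT change for any of these genes (limma adjusted p 0.563 to 0.836).

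A few markers of more mature myeloid cells passed in the fl lines, and most of those listed did not. Of 9 monocyte and macrophage genes tested, Vcan and Ctss rose in the fl lines by 1.48 (SE 0.11, adjusted p = 0.0143) and 1.40 (SE 0.16, adjusted p = 0.046), none fell, and 6 were higher in all 3 lines. Ccr2 and Cx3cr1 stood at -0.16 (SE 0.23) and -0.07 (SE 0.15). The rest of this list stood higher without passing (limma adjusted p 0.134 to 0.661). These were Adgre1 at 1.06, Csf1r at 0.61, Itgam at 0.41, Fcgr1 at 0.35 and Cd14 at 0.23. The mean log2 level of the 9 ran from 8.74 to 9.32 on fl 4-OHT arrays and from 8.31 to 8.53 on fl vehicle arrays. It ran from 8.63 to 8.79 on wt 4-OHT arrays and from 8.62 to 8.84 on wt vehicle arrays. Mrc1, a macrophage receptor gene, was below the level filter. Of 9 neutrophil genes tested, Mmp8 rose by 2.56 (SE 0.19, adjusted p = 0.0143), none fell, and 4 were higher in all 3 lines. Camp, Ltf, S100a9 and Mmp9 stood between -0.02 and 0.13. Cxcr2 at 1.08, Lcn2 at 0.65, S100a8 at 0.64 and Ngp at 0.32 did not pass either (limma adjusted p 0.114 to 0.714). Among all genes tested, 14.6% were higher in all 3 fl lines. The neutrophil mean level ran from 8.74 to 9.40 on fl 4-OHT arrays, against 8.27 to 8.79 on fl vehicle arrays. It ran from 8.28 to 9.77 on wt 4-OHT arrays and from 8.81 to 9.48 on wt vehicle arrays, and Retnlg was below the filter. By line, the monocyte mean changed by 0.61, 0.38 and 0.79 in lines 10949, 10950 and 10986 and by 0.17 and -0.21 in lines 10977 and 10980. The neutrophil mean changed by 0.61, 0.47 and 0.77 and by 0.29 and -0.53. Its median changed by 0.30, 0.24 and 0.62 and by 0.28 and -0.41, while Mmp8 changed by 2.74, 2.18 and 2.75 in the fl lines. Both means had the sign of the Lyz2 and Cybb changes in each line. Their part in the results was not tested.

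**Figure D4:**
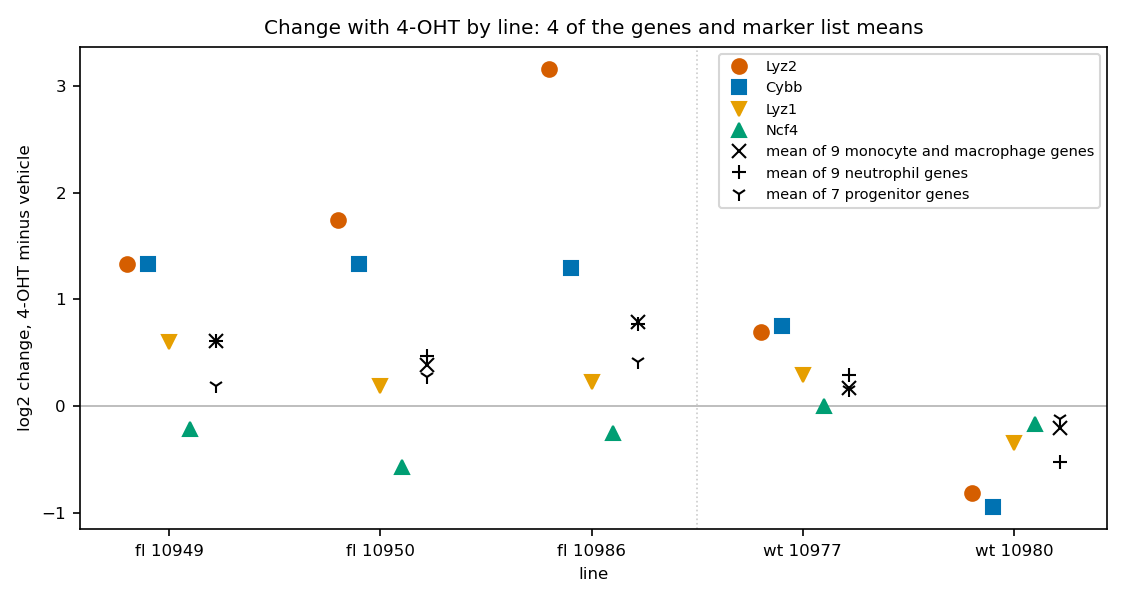
Log2 change with 4-OHT (y axis) in each line (x axis) for Lyz2, Cybb, Lyz1 and Ncf4 (coloured) and for the means of 3 marker lists (black). Lyz2, Cybb, Lyz1 and the monocyte and neutrophil means are above 0 in the fl lines and in wt line 10977 and below 0 in wt line 10980, while Ncf4 is below 0 in the fl lines.

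Other marker lists held no call in any comparison. The 7 progenitor genes had a median change of 0.20 in the fl lines, with Cd34 at 1.04 (SE 0.35) and Flt3 at 0.43 (SE 0.16). Cd34 changed by 0.58 in line 10949, by 0.44 in line 10950 and by 2.09 in line 10986, whose vehicle array stood apart. Of 5 mast cell and basophil genes, with a median of -0.17, Cpa3 stood at 0.89 (SE 0.20, limma adjusted p = 0.143) and Mcpt8 at 0.33 (SE 0.27). Fcer1a, Ms4a2 and Gata2 stood lower, at -0.21, -0.18 and -0.17. Mcpt8 had no shared direction, with 0.33, -0.48 and 1.14 in the same lines. Medians were 0.01 over 4 erythroid and megakaryocyte genes tested (Klf1 -0.12, Epor 0.03), -0.02 over 2 lymphoid genes (Pax5 -0.03, Cd3e -0.01) and -0.03 over 5 dendritic cell genes (Cd74 0.31, H2-Ab1 -0.26). Of the 3 Paneth cell genes, listed because Lyz1 is a Paneth cell gene, Mmp7 alone passed the filter, with a change of 0.06 (SE 0.10).

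**Figure D5:**
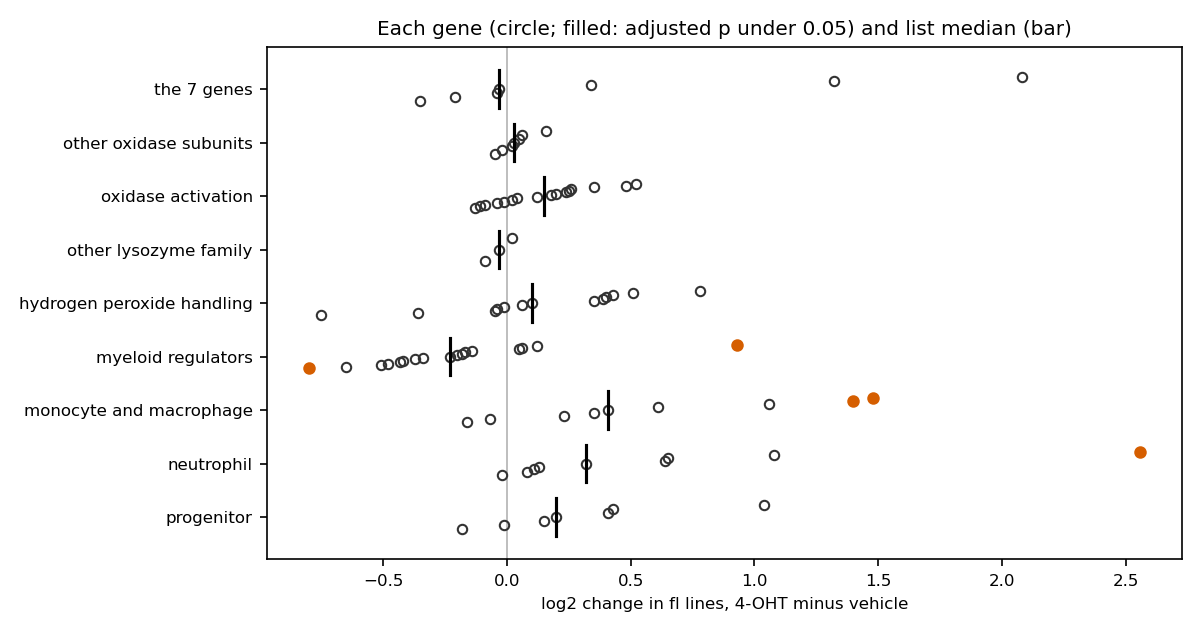
Log2 change with 4-OHT in the fl lines (x axis) of each tested gene (circles, filled where the adjusted p was under 0.05) in the 7 genes and 8 further lists (y axis), with a bar at each list's median. Lyz2 and Cybb stand at 2.08 and 1.32 with open circles, and the filled circles belong to Cebpd, Irf8, Ctss, Vcan and Mmp8.

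The genes most like Lyz2, Cybb and Rac2 were found as the tested genes, outside the 7, with the smallest root mean square difference between centred profiles over the 10 arrays. For Cybb they were Anxa1 (0.34), Lcn2 (0.36), Ifitm6 (0.37), Lsp1 (0.37) and Bst1 (0.42), against a spread of 0.93 for Cybb itself. All 5 changed as Cybb did in direction, up in the 3 fl lines and in line 10977 and down in line 10980. For Lyz2 they were Stat4 (0.54), Penk (0.55), Dcun1d5 (0.57), Slc7a11 (0.58) and Bex6 (0.60), against a spread of 1.11, so the likeness was looser. All 5 had their largest change in line 10986, from 1.94 to 2.60. For Rac2 they were Galm (0.07), Sh3bgrl3, Slc49a4, Rcsd1 and Tdrd7 (0.08 each), against a spread of 0.20.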

How the data were processed

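RNA of c-Kit-positive cells was measured on 10 one-colour arrays, 1 per line and treatment, in 5 lines. Per the submitters' processing notes, RMA gave the 1 intensity per probe set and array that the authors deposited. No source used here gives the software, its version or a genome build. The deposited intensity values were linear and were converted to log2. RMA compresses signals near background, and the deposited arrays still differed in the interquartile range of log2 values (2.67 to 3.05), so rescaled values were tried. Of 35556 probe sets, 21789 had 1 gene symbol in the platform annotation, 1621 had several and 12146 were not listed there and are unnamed. For 21698 the RefSeq table held the Entrez identifier, and 0 symbols needed updating. A gene was represented by its highest-mean probe set, and the 15662 genes whose mean reached 6.23, the 25th percentile over probe sets, were tested.

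All 10 arrays entered each fit (limma 3.58.1, R 4.3.3, two-sided, Benjamini-Hochberg adjustment at 0.05). Changes with 4-OHT had the line as a block and a 4-OHT term per genotype. Genotypes were compared by the 4 group means, the line being a random block (correlation 0.165). Intervals are 95% from these fits. The block follows the series design, in which each line was cultured both ways. Over genes, the correlation between a line's 2 deviations from the group means was 0.78 for line 10949, 0.22 for line 10950, -0.06 for line 10986 and 0.43 for each wt line. With 2 arrays per wt group, the wt lines must share 1 value. The number of arrays limits the precision (median SE 0.12 in the fl and 0.14 in the wt lines).

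The 7 genes and all lists were chosen with earlier results of these data known. Named beside the 7 were, of each of 13 further lists, the genes that passed in a comparison, or otherwise the 2 with the largest fl change (1 where 1 was tested), together with Zfx, Kit and the 5 most similar profiles for Lyz2, Cybb and Rac2. The remaining tested genes of the monocyte, neutrophil and mast cell lists were added after their values were seen. The lists cover other oxidase subunits, oxidase activation, the lysozyme family, peroxide handling, myeloid regulators and markers of progenitor, monocyte, neutrophil, mast, erythroid, lymphoid, dendritic and Paneth cells. Alternatives concerned the block, the filter, the probe set, the scaling, the variance prior, array weights and the arrays included.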

Additional observations from a re-analysis of the deposited data

Results flagged for a closer look

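Ncf1 was lower with 4-OHT in all 3 fl lines and higher in both wt lines, with a fl minus wt difference of -0.27 (SE 0.14, limma adjusted p = 0.889). The 3 fl lines changed by -0.16 (10949), -0.20 (10950) and -0.27 (10986), against 0.10 (10977) and 0.02 (10980) for the wt lines. Gfi1 had the same pattern, with a difference of -0.54 (SE 0.15, adjusted p = 0.707) and changes of -0.41, -0.33 and -0.55 in the fl lines and 0.06 and 0.16 in the wt lines. Prdx4 had the opposite pattern, with a difference of 0.83 (SE 0.42, adjusted p = 0.875), and its fl change was 1.67 in line 10986 against 0.51 and 0.16 in lines 10949 and 10950. None of these differences passed, and 3.49% of all genes were lower in each fl line and higher in each wt line, and 4.58% the other way round.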

How the results depend on the processing

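Without the replicate block (arrays as independent), 0 of the 7 genes passed in any comparison and Lyz2 and Cybb in the fl lines had adjusted p = 0.245 and 0.639. Leaving out 1 line at a time gave 0 to 1 called in the fl lines (Lyz2, at 1.54, without line 10986) and 0 in the other comparisons. With array weights, 6 of the 7 passed in fl vehicle minus wt vehicle, all lower (Lyz2 -1.86, Cybb -1.94, Cyba -0.48, Ncf1 -0.34, Ncf4 -0.35 and Rac2 -0.50), with 6237 genes called. These weights were estimated without convergence and put 116 on 1 array, the vehicle array of line 10950, against 0.134 to 3.03 on the others. No other alternative called any of the 7. Over the alternatives the fl change of Lyz2 was 1.43 to 2.45 (adjusted p 0.0386 to 0.325) and that of Cybb 1.30 to 1.75 (0.0701 to 0.639).

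Signs turned only for values smaller than their SE in the main fit. The largest was 0.64 (SE 0.72) for Cybb in fl 4-OHT minus wt 4-OHT. With 1 line left out at a time, the fl change ranged over -0.13 to 0.05 for Cyba and -0.07 to 0.02 for Rac2. The wt change ranged over -0.35 to 0.29 for Lyz1, -0.82 to 0.69 for Lyz2, -0.95 to 0.75 for Cybb, -0.17 to 0.00 for Ncf4 and -0.18 to 0.03 for Rac2, the ends being the 2 wt lines alone. The difference fl 4-OHT minus wt 4-OHT ranged over -0.11 to 0.39 for Lyz1, -0.23 to 0.78 for Lyz2 and -0.27 to 1.55 for Cybb, from without line 10980 to without line 10977. The fl minus wt difference of the change ranged over -0.02 to 0.15 for Cyba and -0.07 to 0.14 for Rac2. The wt change of Lyz1 was 0.01 after quantile normalization, where the cause was not tested.

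The number of genes called in the fl lines, 24 (8 higher, 16 lower), was 83 with the line as a random block, 61 (28 and 33) after quantile normalization, 65 (31 and 34) with arrays centred on the median of tested genes, which was added after seeing the data, and 3 with arrays centred on the median of all probe sets. It was 8 without the filter, 14 with the stricter filter, 14 with array weights, 0 over all probe sets, 0 with fl arrays only, and 0 to 440 without 1 line. The count under 4-OHT, 101, was 0 to 51 without 1 line, 31 over all probe sets, 66 with centring and 1106 with array weights. The count under vehicle, 3, was 0 to 15 without 1 line and 0 in several other settings, and that of the difference, 0, reached 20 without line 10986. In the wt lines it was 0 throughout. With 3 and 2 line pairs, effects of the size of the median SE were not detectable.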
